A study of Mus musculus with 8 samples.

Results

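A stretch of chromosome 7 around Oscar, the gene that the knockout removes, was examined in articular cartilage of wild-type (WT) and Oscar-/- (KO) mice. The genes were all protein-coding genes of GENCODE M21 (build GRCm38) that lay within 2 Mb of Oscar and had a level above 1 TPM (reads per unit length, scaled to the same sum in every library) in at least 1 of 8 libraries. Gp6, Lair1 and genes whose symbols start with Rps, Rpl or Cox were left out. This gave 52 of 12538 expressed protein-coding genes, namely Oscar and 51 neighbours. Apart from position, the members were thus chosen by their TPM values, in a region singled out with earlier results of these data known. Of the 79 protein-coding genes in the window, 22 stayed at or under the minimum and 5 were left out by name. Just inside the minimum stood Dnaaf3 at 1.09 TPM and Brsk1 at 1.12 TPM in their highest library, and just outside it Sbk2 at 0.62 TPM and Ccdc106 at 0.51 TPM. Of the 52 members, 39 passed in all 8 libraries. Eps8l1, Dnaaf3, Gm44973 and Oscar passed in WT libraries alone and Lilra5 in KO libraries alone, so that the levels that admitted these 5 genes are not independent of their genotype difference.

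Male mice, WT (C57BL/6J) or Oscar-/- (C57BL/6), had sham surgery or destabilisation of the medial meniscus (DMM) and were sampled 2 or 4 weeks later. DMM cuts the ligament that holds the meniscus, which brings on osteoarthritis. The paper states that C57BL/6 males were bought and that the Oscar-/- line was described earlier. It does not say whether WT and Oscar-/- mice were littermates, so genotype and source of the mice cannot be told apart. The labels give an age of 10 weeks for all groups. Each of the 8 combinations of genotype, surgery and week was 1 library, made from RNA of 10 articular cartilages combined, so there were 4 WT and 4 KO libraries and no repeat of any condition. The knockout is of the germ line and its construct is not described in the sources used here. A knockout allele is inherited together with the chromosome around it, so the loss of Oscar and any other difference of that segment between the lines cannot be told apart in these libraries.

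The product of Oscar sits on myeloid cells, binds collagen and signals through the adaptor FcRγ. The paper also reports its mRNA and protein in articular chondrocytes of WT mice. The gene lies at the edge of the leukocyte receptor complex, a gene-dense region that holds families of activating and inhibitory receptors of myeloid and natural killer cells. The paired immunoglobulin-like receptors there, PIR-A and PIR-B, have nearly the same extracellular part and opposite signalling, and their genes are close copies of each other. Between and beyond the receptor genes lie housekeeping genes for respiration, RNA splicing and protein turnover.

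Oscar occupies chromosome 7, 3609813 to 3616157, on the minus strand. Only 5 neighbours lie on the side of lower coordinates, because the first annotated gene of the chromosome starts at 3046372, and 46 lie on the other side, the farthest of them Epn1 at 1464 kb. Ndufa3 is the nearest of all. It starts 1216 bases from the start of Oscar and is transcribed in the opposite direction, so that the region between them holds both promoters. The start regions of these genes in RefSeq (GRCm38.p6, 250 bases before to 50 bases after the start, read along the gene's strand) are given here because their genes carry the results. A start region was found for 45 of the 52 members. Capitals mark 4 motifs, searched on both strands. They are the GC box, spelled GGGCGG, the CCAAT box, the core of the TATA box in the form TATAAA, and the sequence that the myeloid factor PU.1 prefers, in the form GAGGAA.

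The start region of Oscar, chr7:3616108-3616407 on the minus strand, holds the PU.1 form 2 times and none of the other motifs.
Oscar: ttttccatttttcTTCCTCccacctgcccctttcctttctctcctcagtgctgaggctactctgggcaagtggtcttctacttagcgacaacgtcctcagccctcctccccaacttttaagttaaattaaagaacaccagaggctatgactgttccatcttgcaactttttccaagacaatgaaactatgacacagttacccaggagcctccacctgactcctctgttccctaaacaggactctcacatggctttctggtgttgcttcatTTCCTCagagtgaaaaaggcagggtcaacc
The start region of Ndufa3, chr7:3617123-3617422 on the plus strand, holds 1 GC box, 1 TATA core and no PU.1 form.
Ndufa3: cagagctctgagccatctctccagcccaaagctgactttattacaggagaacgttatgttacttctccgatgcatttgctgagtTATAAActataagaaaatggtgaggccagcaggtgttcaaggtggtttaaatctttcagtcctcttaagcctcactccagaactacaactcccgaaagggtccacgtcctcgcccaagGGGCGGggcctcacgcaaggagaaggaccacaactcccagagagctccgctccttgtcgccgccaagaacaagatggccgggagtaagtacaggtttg
The start region of Eps8l1, chr7:4460447-4460746 on the plus strand, holds 1 GC box, 1 CCAAT box and 1 PU.1 form.
Eps8l1: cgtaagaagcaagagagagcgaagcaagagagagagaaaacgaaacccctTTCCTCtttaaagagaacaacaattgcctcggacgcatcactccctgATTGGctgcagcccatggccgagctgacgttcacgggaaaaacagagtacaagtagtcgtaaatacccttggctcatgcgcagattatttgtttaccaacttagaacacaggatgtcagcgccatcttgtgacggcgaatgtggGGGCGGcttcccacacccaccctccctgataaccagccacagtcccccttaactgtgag

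The start regions of the 4 receptor genes below are close copies. The Pirb window (chr7:3720333-3720632, minus strand) and the Gm14548 window (chr7:3898092-3898391, minus strand) were identical at 95.35% of aligned positions. The Pira2 window (chr7:3845002-3845301, minus strand) and the Lilra6 window (chr7:3915452-3915751, minus strand) were identical at 95.03%. Lower values, such as 78.1% for Pira2 and Gm14548 and 80.5% for Pirb and Pira2, count overhanging window ends as differences. Those windows begin at different places of the copied stretch, so the lower values do not measure how alike the shared bases are. All 4 windows hold the PU.1 form 3 times and no GC box.
Pirb: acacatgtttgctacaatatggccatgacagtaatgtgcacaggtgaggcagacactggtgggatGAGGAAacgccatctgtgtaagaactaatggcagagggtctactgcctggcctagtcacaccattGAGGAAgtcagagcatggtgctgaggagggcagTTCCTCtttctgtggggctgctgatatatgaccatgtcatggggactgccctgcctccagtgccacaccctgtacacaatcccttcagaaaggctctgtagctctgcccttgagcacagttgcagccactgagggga
Gm14548: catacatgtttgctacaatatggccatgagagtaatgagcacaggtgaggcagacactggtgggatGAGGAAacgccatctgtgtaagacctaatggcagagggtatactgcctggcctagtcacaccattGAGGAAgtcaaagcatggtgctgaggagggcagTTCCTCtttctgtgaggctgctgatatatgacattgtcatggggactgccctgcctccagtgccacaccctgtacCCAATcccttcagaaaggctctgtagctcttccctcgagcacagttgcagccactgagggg
Pira2: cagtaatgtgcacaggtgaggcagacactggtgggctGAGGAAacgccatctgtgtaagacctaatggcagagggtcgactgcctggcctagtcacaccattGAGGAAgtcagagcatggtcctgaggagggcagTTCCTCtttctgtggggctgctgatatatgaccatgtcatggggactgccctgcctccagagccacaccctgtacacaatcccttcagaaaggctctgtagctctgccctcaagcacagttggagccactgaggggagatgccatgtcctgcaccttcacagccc
Lilra6: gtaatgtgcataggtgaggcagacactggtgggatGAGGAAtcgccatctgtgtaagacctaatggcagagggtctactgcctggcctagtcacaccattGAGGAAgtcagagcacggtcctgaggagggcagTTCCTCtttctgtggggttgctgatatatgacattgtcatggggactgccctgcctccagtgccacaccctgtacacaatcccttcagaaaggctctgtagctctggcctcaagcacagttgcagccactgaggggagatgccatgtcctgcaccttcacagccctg
Of 32851 start regions of this length in RefSeq, the PU.1 form occurred in 28.3%, the GC box in 35.7%, the CCAAT box in 37.4% and the TATA core in 13.6%. These matches describe letters in the window and say nothing of binding.

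The libraries held between 13189181 and 18533609 expected counts. Of a list of 8 cartilage genes such as Col2a1 and Acan, none was at 0, and the list summed to 0.0663% to 0.148% of all transcripts, while 6 erythroid genes took 26.6% to 37.8% and 7 neutrophil genes 6.55% to 10.6%. Libraries labelled articular cartilage thus held much RNA of blood and marrow cells, in both genotypes. In such bulk samples fewer cells of a type and less RNA per cell cannot be told apart. The file names place all 2-week libraries on 1 sequencing lane, the 4-week WT libraries on another and the 4-week KO libraries on yet another, so that at 4 weeks genotype and lane cannot be told apart. The 4 pairs of same surgery and week are therefore given one by one, and the 2-week values are free of that limit.

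Reads of Oscar were present in all WT libraries and absent from all KO libraries. Its level was 1.25 TPM after sham and 3.53 TPM after DMM at 2 weeks and 1.70 and 4.21 TPM at 4 weeks in WT, against 0 in all 4 KO libraries. The WT libraries held 302 counts in sum and the KO libraries 0, which with a floor of 3 counts over the KO group makes the level at least 95.1-fold lower at equal depth. The libraries thus follow their genotype labels.

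Genotype was tested in edgeR's quasi-likelihood model with additive terms for week and surgery, adjusted over all 12538 genes. Only 6 of these genes (0.0479%) passed an adjusted p of 0.05, and all 6 lay in the window, Oscar and 5 neighbours. Lower in KO were Ndufa3, Pira2, Pirb and Eps8l1 (4 neighbours and Oscar, against 0.0399% of all genes). Higher was Gm14548, the only one of the 12538 protein-coding genes called in that direction in this fit (0.00798%). The 8 lowest p-values of the 12538 genes belonged to Oscar and 7 neighbours, the remaining ones being Lilra6 and Tarm1, and 9 of the lowest 20 lay in the window. At an unadjusted p under 0.05 stood 18 of the 51 neighbours and 2.69% of all genes. DESeq2 called 10 genes (0.0798%), of which 6 were neighbours, the 5 above and Lilra6. With limma 4 neighbours passed on log2(TPM + 1), where 0.0479% of genes did, and 3 on log2(TPM + 0.1), where 0.0319% did. The p-values measure the spread left after the additive terms, since no condition was repeated. The number of neighbours called fell from 5 to 3 without WT DMM 2 weeks or KO DMM 2 weeks, where 4 genes were called in all. It fell to 2 without KO sham 4 weeks (3 genes in all) and to 1, Pira2, without WT sham 4 weeks (2 genes in all).

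**Figure D1:**
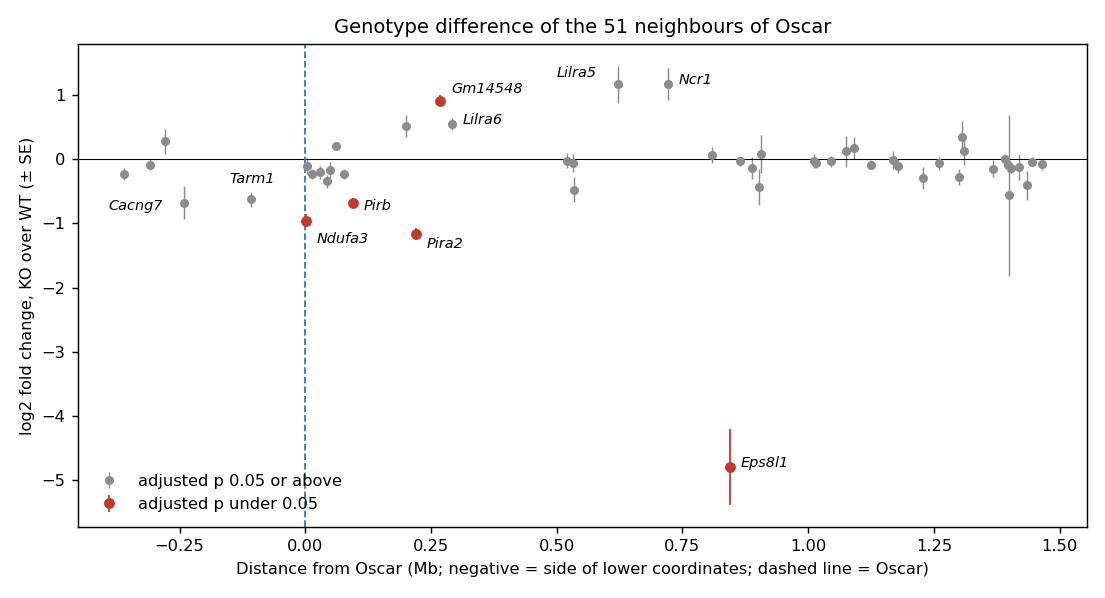
Log2 fold change of KO over WT (y axis, with standard error, edgeR) of each neighbour against its distance from Oscar in Mb (x axis, negative on the side of lower coordinates). The 5 genes past the adjusted threshold are in red, and the points draw in toward 0 beyond about 1 Mb, where 1 of 22 neighbours had an unadjusted p under 0.05.

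Ndufa3 encodes a subunit of respiratory complex I. In WT its level was 157 TPM after sham and 148 TPM after DMM at 2 weeks, and 223 and 224 TPM at 4 weeks. In KO it was 76.1 and 84.5 TPM at 2 weeks and 108 and 102 TPM at 4 weeks. Every KO library lay below every WT library, and the highest KO value fell short of the lowest WT value by a wide margin. The fold change was -0.96 on the log2 scale (SE 0.10, edgeR adjusted p = 0.00859), a level in KO of 0.514 times that of WT. The exact two-sided permutation test gave p = 0.0286, the smallest that 70 assignments of 4 and 4 libraries allow. On scaled counts the 4 pairs differed by -1.30, -0.69, -0.97 and -0.87 (sham and DMM at 2 weeks, then at 4 weeks), with counting errors of 0.077 to 0.091 each. No stretch as long as a read of any Ndufa3 transcript occurs unchanged in a GENCODE M21 transcript of another gene. Copies with small differences, or outside that annotation, were not searched for. Among the 45 other expressed nuclear genes of the Nduf family, a set looked at after Ndufa3 was seen, edgeR called none and gave none an unadjusted p under 0.05, and their log2 fold changes ran from -0.14 to 0.15.

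The genes next to Ndufa3 on the same side showed small differences. Tfpt, which encodes a subunit of the INO80 chromatin remodeler and overlaps the end of Ndufa3 by 4 bases, lay at 9.55 to 13.8 TPM in WT, against 7.44 to 13.3 TPM in KO, with overlapping groups and a log2 fold change of -0.10 (SE 0.13). Prpf31, a splicing factor of the U4/U6 particle, had 15.3, 18.6, 20.7 and 21.4 TPM in WT, against 17.5, 18.6, 16.0 and 15.1 TPM in KO in the order 2-week sham, 2-week DMM, 4-week sham and 4-week DMM. Its log2 fold change was -0.23 (SE 0.081) and missed the adjusted threshold (edgeR adjusted p = 1). Cnot3, of the CCR4-NOT complex that shortens mRNA tails, had a log2 fold change of -0.20 (SE 0.11) and Leng1 one of -0.34 (SE 0.098). Every KO library lay below every WT library for Leng1 on scaled counts, while in TPM the groups overlapped.

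On the other side, Tarm1 is the nearest gene, 107 kb away, and encodes an activating immunoglobulin-like receptor of neutrophils. It had 5.53, 6.48, 9.42 and 8.63 TPM in WT, against 4.77, 3.92, 8.40 and 7.65 TPM in KO, lower in KO in all 4 pairs, and its log2 fold change was -0.63 (SE 0.12, edgeR adjusted p = 0.716). Cacng7, a calcium channel subunit, had 0.83 to 1.80 TPM in WT, against 0.45 to 1.59 TPM in KO, at a log2 fold change of -0.67 (SE 0.26). Myadm, a membrane protein of myeloid cells, had one of -0.08 (SE 0.090) and Nlrp12, an inhibitory NOD-like receptor, one of -0.22 (SE 0.091). None of these 4 genes passed the adjusted threshold in edgeR.

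**Figure D2:**
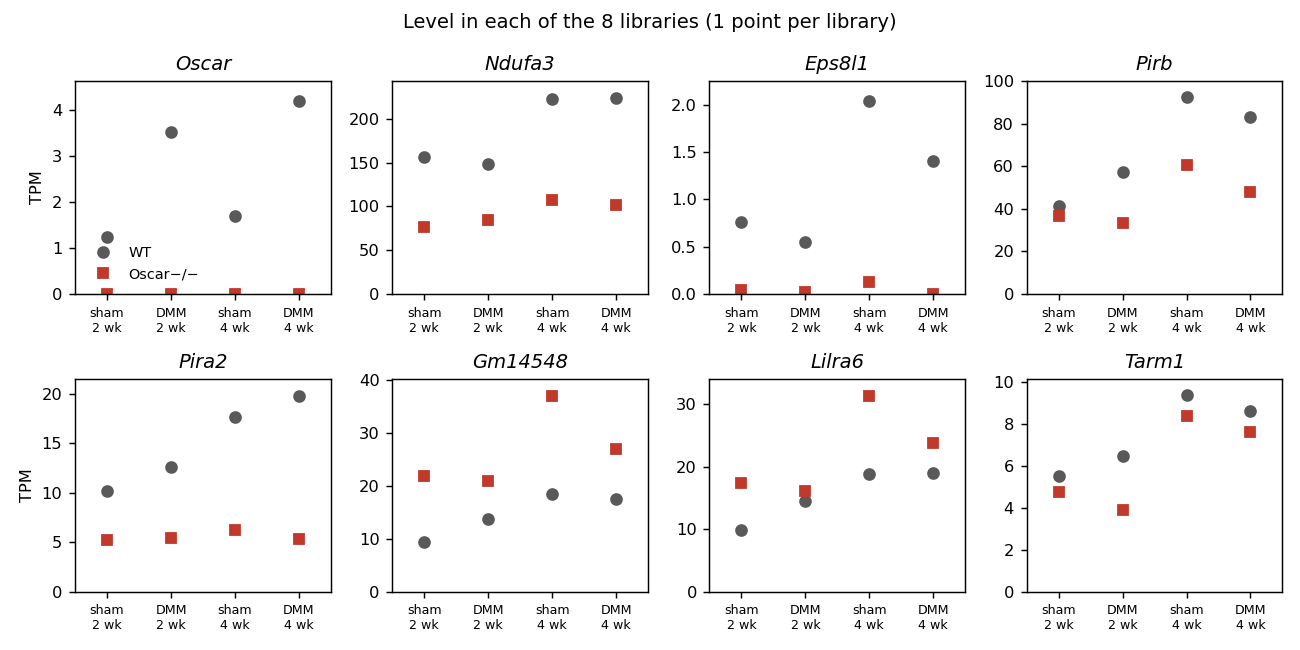
Level in TPM (y axes from 0) of Oscar and 7 neighbours in each of the 8 libraries (x axis, surgery and week), WT as gray circles and KO as red squares, 1 point per library. The KO points of Ndufa3, Pira2 and Eps8l1 lie below and those of Gm14548 above all WT points, while for Pirb, Lilra6 and Tarm1 the groups overlap across weeks.

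The paired receptor genes from Pirb, 95.3 kb from Oscar, to Lilra6, 292 kb from it, did not move one way. Of these Pira2 and Pirb were called lower and Gm14548 higher, and Lilra6 and Gm15448 were not called. Pira2, an activating PIR-A receptor, had 10.2, 12.6, 17.6 and 19.7 TPM in the WT libraries (2-week sham, 2-week DMM, 4-week sham, 4-week DMM) and 5.18, 5.38, 6.24 and 5.37 TPM in the KO libraries. All KO values lay below all WT values, and the WT level was higher at 4 than at 2 weeks while the KO level stayed between 5.18 and 6.24 TPM. On counts its week difference over both genotypes was 0.15 on the log2 scale (SE 0.094, edgeR adjusted p = 0.337). A change of the genotype difference with week was not called, and week and lane coincide. The genotype log2 fold change was -1.16 (SE 0.095, edgeR adjusted p = 0.00317). Gm14548, another PIR-A gene, had 9.32, 13.7, 18.4 and 17.4 TPM in WT, against 21.9, 20.97, 36.9 and 27.0 TPM in KO, with all KO values above all WT values, and a log2 fold change of 0.91 (SE 0.089, edgeR adjusted p = 0.00621). For both genes the exact permutation test gave its smallest p, 0.0286.

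Pirb, the inhibitory receptor of the family, had 41.3, 57.5, 92.4 and 83.4 TPM in WT, against 36.7, 33.5, 60.8 and 48.0 TPM in KO. It was lower in KO in each of the 4 pairs, and the groups overlapped in TPM across weeks but not on scaled counts. Its log2 fold change was -0.68 (SE 0.077, edgeR adjusted p = 0.0125), and the exact permutation test without week gave p = 0.143. Lilra6 had 9.94, 14.5, 18.9 and 19.1 TPM in WT, against 17.4, 16.1, 31.4 and 23.8 TPM in KO, higher in KO in all 4 pairs, at a log2 fold change of 0.55 (SE 0.093), and missed the threshold in edgeR (adjusted p = 0.270) but not in DESeq2 (adjusted p = 0.00560). Gm15448, a further gene of the cluster, had a log2 fold change of 0.52 (SE 0.18, edgeR adjusted p = 1). Of the 4 genes whose start regions are printed above as close copies, Pirb and Pira2 stood below 0 and Gm14548 and Lilra6 above it. A part of the start regions in these values was not tested.

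These receptor values rest on reads that copies share. Of all stretches of read length in Pira2 transcripts 83.9% also occur in another gene, most of them (71.7%) in Gm15922, annotated as a polymorphic pseudogene 115473 bases from Oscar. The share was 51.6% for Gm14548, 27.0% for Gm15448, 20.5% for Pirb and 11.7% for Lilra6. The counts of the first 2 genes in particular are therefore uncertain, because RSEM divides such reads by estimate. Gm15922 had 3.4, 5.48, 8.75 and 7.22 TPM in WT, against 7.35, 7.39, 14.3 and 11.5 TPM in KO. The scaled counts of Pira2 alone differed between KO and WT by -1.05, -0.89, -1.30 and -1.41 on the log2 scale in the pairs sham 2 weeks, DMM 2 weeks, sham 4 weeks and DMM 4 weeks. Pira2 and Gm15922 added together differed by -0.24, -0.22, -0.19 and -0.26. In TPM the values were -0.97, -1.23, -1.498 and -1.88 for Pira2 alone and -0.11, -0.50, -0.36 and -0.67 for the sum. The sum was below WT in all 4 pairs on both scales, by less than Pira2 alone.

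As RSEM divided the reads, the balance among the copies moved more than their total. Of the stretches of read length in Gm14548, 41.3% also occur in Pira2, so the balance of these genes depends on that division. Pira2 made up 29.4% to 33.8% of the summed TPM of Pira2, Gm14548, Lilra6 and Gm15448 in the WT libraries and 7.95% to 12.1% in the KO libraries. The ratio of Gm14548 to Pira2 was 0.883 to 1.09 in WT and 3.90 to 5.91 in KO. The scaled counts of these genes, Pirb and Gm15922 added together differed by -0.12, -0.30, -0.13 and -0.18 on the log2 scale in the 4 pairs. In TPM the same sum differed by 0.28, -0.31, -0.05 and -0.32, so its direction was not the same in all pairs. Neutrophil marker transcripts, from cells known to express PIR genes, summed to 84250 to 101433 TPM in WT, against 65549 to 105729 TPM in KO, and macrophage markers to 101.3 to 208 TPM in WT, against 136 to 164 TPM in KO. These ranges overlap, but the pairs of same surgery and week differed. At 2 weeks the neutrophil list took 9.22% of transcripts in WT against 7.19% in KO after sham, and 8.425% against 6.55% after DMM. At 4 weeks it took 10.1% against 10.6% after sham and 8.88% against 8.45% after DMM. The macrophage list was higher in KO in the sham pair at 2 weeks and lower in the others. The part of these cells in the receptor values was not tested.

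**Figure D3:**
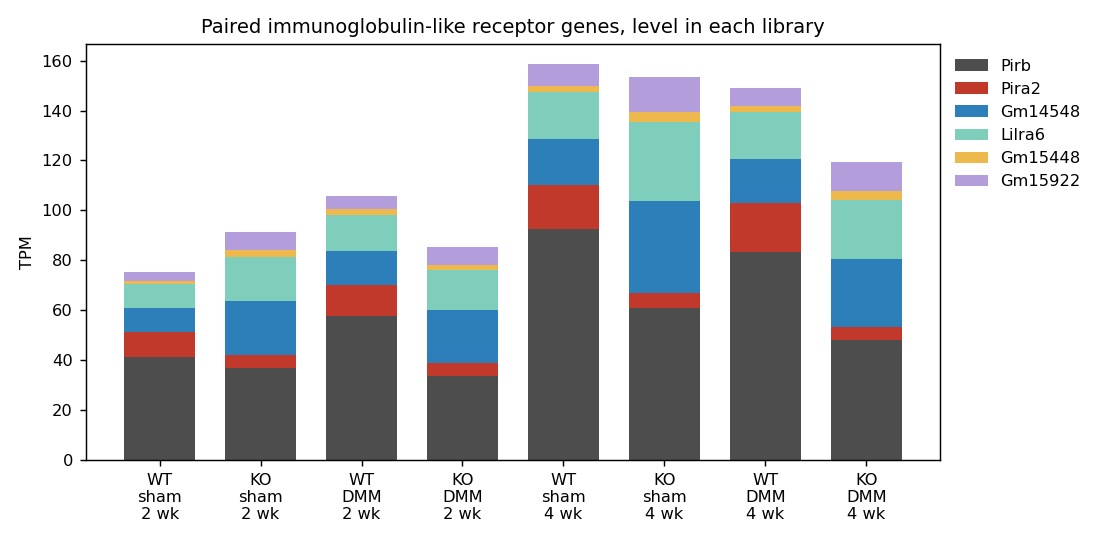
Stacked level in TPM (y axis from 0) of 5 paired receptor genes and the pseudogene Gm15922 in each of the 8 libraries (x axis, WT beside KO for each surgery and week). The red Pira2 part shrinks from 10.2 to 19.7 TPM in WT to 5.18 to 6.24 TPM in KO, while the blue Gm14548 part grows.

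Farther along, a pair of receptors of low level had higher values in KO without passing the adjusted threshold. Ncr1, the natural killer cell receptor NKp46, had 0.17, 0.23, 1.19 and 1.49 TPM in WT, against 0.52, 0.81, 1.97 and 2.69 TPM in KO. It was higher in KO in all 4 pairs, with 5 to 26 expected counts in the WT libraries and 10 to 70 in the KO libraries, at a log2 fold change of 1.17 (SE 0.25, edgeR adjusted p = 0.806). Lilra5, an activating receptor of monocytes, had 0.20 to 0.65 TPM in WT, against 0.39 to 1.12 TPM in KO, at a log2 fold change of 1.17 (SE 0.29, edgeR adjusted p = 1). Of the 8 immunoglobulin-like receptor genes among the neighbours, 1 was called higher and 2 lower, against 0.00798% and 0.0399% of all genes, and all 8 had an unadjusted p under 0.05, against 2.69%, with 3 below and 5 above 0. The direction within the family was thus mixed.

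Eps8l1, 845 kb from Oscar, encodes a relative of the actin regulator EPS8 and had the largest fold change among the neighbours. Its level was 0.76, 0.55, 2.04 and 1.40 TPM in WT, against 0.04, 0.02, 0.13 and 0 TPM in KO. The WT libraries held 132 counts of it and the KO libraries 4, a ratio of 31.2 at equal depth (exact 95% interval 11.9 to 116, covering counting error only). Every WT value lay above every KO value (exact permutation p = 0.0286), and the log2 fold change of -4.80 (SE 0.59, edgeR adjusted p = 0.0232) depends on how the fit treats counts near 0. At about 1 TPM in WT this gene was near the minimum that admitted it, and under a minimum on the mean of the 8 libraries it was not tested. No stretch of read length in its transcripts occurs unchanged in a GENCODE M21 transcript of another gene. An antisense gene, Gm15494, overlaps it over 10612 bases, and whether the counting used strand is not given in the sources used here.

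Beyond the 5 called genes no neighbour passed the adjusted threshold. Of 16 genes for RNA processing and transcription edgeR called none and gave 4 an unadjusted p under 0.05, against 2.69% of all genes, at log2 fold changes of -0.41 to 0.01, 15 of them below 0. U2af2, the large splicing factor U2AF, had 77.9 to 124 TPM in WT, against 94.9 to 101.1 TPM in KO, and its groups overlapped. Tsen34, a subunit of the tRNA splicing endonuclease, had 16.3, 21.3, 24.1 and 26.3 TPM in WT, against 18.4, 16.1, 18.1 and 15.9 TPM in KO, at a log2 fold change of -0.23 (SE 0.082).

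Of the 6 genes for mitochondria and lipid metabolism Ndufa3 was called. Mboat7, an acyltransferase of phosphatidylinositol, had a log2 fold change of 0.21 (SE 0.066, edgeR adjusted p = 1). Of 7 genes for membranes and trafficking Eps8l1 was called, and Cdc42ep5, an effector of the small GTPase CDC42, had one of -0.48 (SE 0.20, edgeR adjusted p = 1). Epn1, an endocytic adaptor, had 56.0 to 97.3 TPM in WT, against 67.5 to 70.9 TPM in KO.

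For the 6 genes of ubiquitin, chaperones, phosphatases and kinases edgeR gave no call and no unadjusted p under 0.05. Ube2s, the ubiquitin-conjugating enzyme that works with the anaphase-promoting complex, was the most abundant neighbour and had 236 to 265 TPM in WT, against 205 to 251 TPM in KO. Ppp1r12c, a myosin phosphatase subunit, had 51.7 to 86.5 TPM in WT, against 54.6 to 79.3 TPM in KO. The sarcomere genes Tnnt1 and Tnni3, troponins of slow skeletal and heart muscle, had log2 fold changes of -0.13 (SE 0.17) and -0.43 (SE 0.28), and 6 muscle markers summed to 38.0 to 144 TPM in WT, against 38.6 to 100.1 TPM in KO.

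The share of neighbours with an unadjusted p under 0.05 for genotype, and their median difference, fell with distance from Oscar. Within 0.25 Mb, 10 of 13 neighbours (76.9%) had an unadjusted p under 0.05, and 3 were called. Between 0.25 and 0.5 Mb these were 3 of 5 (60%) with 1 called, and between 0.5 and 1 Mb 4 of 11 (36.4%) with 1 called. The 4 include Eps8l1, the called gene, and Lilra5. Both passed the TPM minimum in 1 genotype alone, so their part in this band is not independent of the choice of members. From 1 to 2 Mb only Zfp628, at a log2 fold change of -0.28 (SE 0.12), was among the 22 neighbours, and none was called. The median absolute log2 fold change over these bands was 0.34, 0.28, 0.13 and 0.11, and 0.07 over all expressed genes. The largest differences did not fall in this order. The 90th percentile was 0.90, 0.77, 1.17 and 0.35 over these bands, highest at 0.5 to 1 Mb, where Eps8l1, Ncr1 and Lilra5 lie.

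Beyond the window, none of the 9 chromosome 7 genes at 2 to 4 Mb and none of the other 897 were called in edgeR. The share with an unadjusted p under 0.05 was 11.1% of 9 genes at 2 to 4 Mb, and in bands chosen after seeing the data it was 7.14% of 14 genes at 4 to 10 Mb, 11.4% of 70 at 10 to 20 Mb, 6.37% of 157 at 20 to 30 Mb, 4.32% of 139 at 30 to 60 Mb and 3.09% of 517 farther away. On all other chromosomes it was 2.38% of 11575 genes. Genes that lie close together share reads and regulators and are not independent of each other, so these shares are a description.

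**Figure D4:**
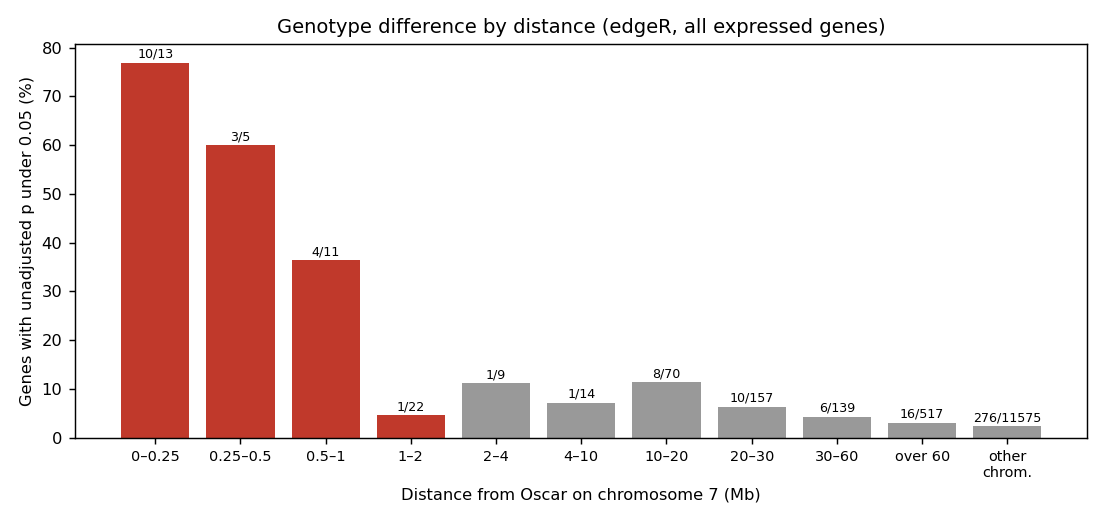
Percent of expressed genes with an unadjusted p under 0.05 for genotype (y axis from 0, edgeR) by distance from Oscar on chromosome 7 in Mb and on all other chromosomes (x axis), with the number of genes over the bars. The red bars are the neighbours, from 76.9% nearest to Oscar to 4.55% at 1 to 2 Mb, against 2.38% on other chromosomes. The bar at 0.5 to 1 Mb includes Eps8l1 and Lilra5, which passed the TPM minimum in 1 genotype alone.

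Without any model, the 4 WT and 4 KO values did not overlap for 4 of 51 neighbours in TPM, against 0.479% of all genes. Of these Ndufa3, Pira2 and Eps8l1 were lower in KO (0.359% of all genes) and Gm14548 higher (0.12%). On TMM-scaled counts 9 neighbours did not overlap, against 1.24% of all genes. The added ones were Leng1, Tsen34, Pirb and Tarm1, which made 7 on the lower side (0.598% of all genes), and Lilra6, which made 2 on the higher side (0.638%). On these counts a difference of at least 1.5-fold in all 4 pairs was seen for 3 neighbours on the lower side (Ndufa3, Pira2 and Eps8l1, against 0.0638% of all genes) and 3 on the higher side (Gm14548, Lilra5 and Ncr1, against 0.0558%). Lilra5 met this only narrowly. In the DMM pair at 2 weeks it had 11 counts in WT and 13 in KO, a log2 ratio of 0.59 (counting error 0.59), and 0.48 in TPM. Eps8l1 and Lilra5 passed the TPM minimum in WT and in KO libraries alone, respectively, which favours these directions.

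The median log2 ratio of KO over WT of the neighbours in TPM was 0.28 in the sham pair at 2 weeks, -0.19 in the DMM pair at 2 weeks, -0.17 in the sham pair at 4 weeks and -0.31 in the DMM pair at 4 weeks, and the medians over all genes were 0.28, -0.13, -0.05 and -0.27. On TMM-scaled counts the medians of the neighbours were -0.02, -0.03, -0.11 and -0.11, and those of all genes 0.0055, -0.00024, 0.015 and -0.0079. Within the 2-week libraries, which shared a lane, Ndufa3, Pira2, Gm14548 and Eps8l1 passed the threshold in edgeR, 4 neighbours among 23 genes in all, and Pirb stood at -0.67 on the log2 scale with an edgeR adjusted p of 0.0852. Within the 4-week libraries Pira2 alone passed, at a log2 fold change of -1.37, and Ndufa3 stood at -0.94 with an edgeR adjusted p of 0.0525. These fits rest on 4 libraries with 1 residual degree of freedom.

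**Figure D5:**
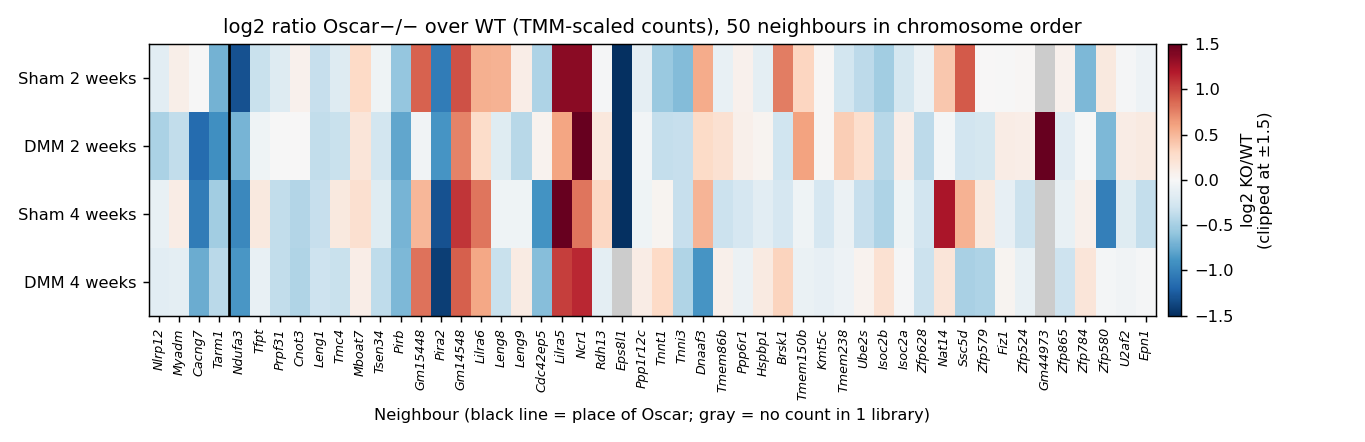
Log2 ratio of KO over WT on TMM-scaled counts (color, clipped at ±1.5) in each of the 4 pairs (rows) for 50 of the neighbours in chromosome order (columns), with gray where a library had no count. The columns of Ndufa3, Pirb, Pira2 and Eps8l1 are blue and those of Gm14548, Lilra6, Lilra5 and Ncr1 red in every pair that has a value. Other columns also keep their color, among them Tarm1, Leng1 and Tsen34 (blue) and Mboat7 (red), while most columns on the right change color between pairs.

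The surgery comparison asked whether the same genes responded to DMM. Neither a neighbour nor any other of the 12538 genes was called in edgeR (0%). An unadjusted p under 0.05 was found there for 2 neighbours and 805 genes (6.42%). DESeq2 called 73 genes (0.582%) and limma on log2(TPM + 1) called 21 (0.167%), and 10 on log2(TPM + 0.1), with no neighbour among them. The unadjusted 2 were Tmc4, a transmembrane channel-like protein, at a log2 difference of DMM over sham of -0.39 (edgeR adjusted p = 0.488), and Ssc5d, a secreted scavenger receptor, at 0.59 (edgeR adjusted p = 0.580).

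Between 2 and 4 weeks 8 neighbours were called, all higher at 4 weeks, where 7.94% of all genes were called and 5.58% higher. Ncr1 had the largest difference, 1.91 on the log2 scale (SE 0.26, edgeR adjusted p = 0.00352). The others were Tmc4 at 0.70, Nlrp12 at 0.51, Leng8 at 0.50, Pirb at 0.42, Lilra6 at 0.40, Mboat7 at 0.33 and Ppp1r12c at 0.27. The weeks were sequenced on different lanes, so that week and lane cannot be told apart. The count fell to 1 without KO DMM 2 weeks, where 337 genes were called in all, or KO sham 4 weeks, where 340 were. It fell to 2 without WT sham 4 weeks (248 genes in all) and to 4 without WT DMM 4 weeks (586 genes). In TPM the median over all genes was itself 0.23 higher at 4 weeks in the limma fit on log2(TPM + 1), against -0.02 in edgeR.

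For a DMM response that differs between genotypes, edgeR called 3 of the 51 neighbours. Of all genes 5.24% were called for this interaction, a like share, so the number does not set the neighbours apart. Ssc5d had 0.92 TPM after sham and 2.90 TPM after DMM at 2 weeks and 1.10 and 2.28 TPM at 4 weeks in WT, against 2.26 and 2.42 TPM at 2 weeks and 1.64 and 1.36 TPM at 4 weeks in KO. In both WT pairs its level was higher after DMM, and the KO response minus the WT response was -1.11 on the log2 scale (SE 0.23, edgeR adjusted p = 0.0267). Ube2s had a difference of 0.52 (SE 0.13, edgeR adjusted p = 0.0435). Gm44973 had one of 8.72 (SE 2.0, edgeR adjusted p = 0.0480), which rests on 3 libraries with any count of it, and 89.3% of its stretches of read length occur in another gene. The number of neighbours called fell when any library other than WT sham 4 weeks was left out, and rose without that library. The number called over all genes moved the same way in each case. The genotype difference itself did not change detectably with week. No gene was called for that interaction in edgeR, with an unadjusted p under 0.05 for 361 genes (2.88%) and for the neighbours Pira2 and Cnot3, and DESeq2 called 1 gene.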

How the data were processed

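RNA of 10 articular cartilages per library was read as paired ends in 8 libraries. Reads were checked, aligned and quantified by the authors, for which their processing notes list FastQC (0.11.8), then STAR (2.6.0a) as aligner and RSEM (1.2.17) for gene estimates. Those notes name a human build, although the identifiers are of mouse. The authors deposited expected counts, which are estimates that RSEM divides among genes sharing reads and which were rounded here, and TPM, which have 1 fixed sum per library, so that abundant genes shift all others. Identifiers were matched to GENCODE M21 (52403 of 52636).

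Expressed protein-coding genes (12538) were tested with edgeR 4.0.16 (quasi-likelihood, TMM scaling, Benjamini-Hochberg adjustment, threshold 0.05) with terms for week, surgery and genotype, in R 4.3.3. DESeq2 1.42.0, limma 3.58.1 on log2(TPM + 1) and log2(TPM + 0.1), other scaling and filters, subsets of libraries, the leaving out of each library and a term for each pair were alternatives. The edgeR fits for genotype, surgery and week were also run on counts simulated with the dispersions that edgeR had estimated. Such counts hold no lane effect, so they cannot show how lane bears on the calls. Stretches of read length shared between GENCODE transcripts and motifs in RefSeq start regions were counted in Python 3.11.15 with pandas 2.3.3, numpy 2.4.6 and scipy 1.17.1. Intervals and floors cover counting error only. Nothing in the labels says that libraries repeat a condition.

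Genes described are Oscar, every neighbour past the genotype threshold, the 5 nearest on each side, the receptor genes, neighbours past another threshold (at most 5 each) and the most abundant of each role. Others with an unadjusted p under 0.05 were named after their values were seen. The values of 1 neighbour are not reported here. The members, lists and rules were chosen with earlier results of these data known.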

Additional observations from a re-analysis of the deposited data

Results flagged for a closer look

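In 102 groups of 4 libraries of 1 genotype, Dixon's test set a library apart in 5, about as many as the 1 in 20 that chance gives. Zfp784 had 1.31 TPM in KO sham 4 weeks, above the other KO libraries, and Zfp628 had 3.38 TPM in that library. Zfp865 had 45.93 TPM in WT sham 4 weeks, against 4.05 to 8.08 TPM in the other WT libraries, although its expected count there was 420 beside 354 to 409 in those. TPM divides by an effective length that RSEM estimates per library, and the fit on counts does not use it. Gm44973 had 1.22 TPM in WT sham 2 weeks and 0.92 TPM in KO DMM 2 weeks, each above the rest of its genotype.

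In edgeR's interaction term the DMM response was called as differing between genotypes for Ssc5d, by -1.11 on the log2 scale, for Ube2s, by 0.52, and for Gm44973, by 8.72. These are 3 of 51 neighbours, a share like the 5.24% of all genes called. When each library was left out in turn Ssc5d stood at -1.29 to -0.90, and it passed the threshold only without KO DMM 2 weeks or WT sham 4 weeks.

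Among the pseudogenes of the window, which took no part in the comparisons of protein-coding genes, 1 was called for genotype. Gm15925, an unprocessed pseudogene 172726 bases from Oscar, had 0 to 0.13 TPM in WT and 1.0 to 1.51 TPM in KO, at most 3.07 expected counts in a WT library and at least 25.84 in a KO library. In an edgeR fit over 14783 genes of all types, added after seeing the data, it was 1 of 7 genes called, at a log2 fold change of 4.27 (SE 0.43, edgeR adjusted p = 0.00693). Gm15931, another unprocessed pseudogene, 658032 bases away, had 0.16 to 0.73 TPM in WT and 1.22 to 2.47 TPM in KO, at 1.92 (SE 0.28, edgeR adjusted p = 0.0712). Gm15925 and Gm15931 passed the TPM minimum in KO libraries alone, so the levels that admitted them are not independent of their genotype difference. Gm15922 stood at 0.76 (SE 0.11, edgeR adjusted p = 0.0712). Of the stretches of read length in Gm15925 30.5% and of Gm15931 9.30% occur in other genes, mostly in Pirb.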

How the results depend on the processing

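Pira2 kept its genotype call in all 19 alternatives, Ndufa3 and Gm14548 in 16 of 19, Eps8l1 in 12 of 18 and Pirb in 10 of 19, with no change of direction in any of them. The number of neighbours called for genotype was 5. It was 3 with limma on log2(TPM + 0.1), where 4 genes were called in all, and 1 within the 4-week libraries, where 1 was. It was 10 within the sham libraries, where 794 genes were called in all. When each library was left out in turn it was 1 to 5, where 2 to 8 genes were called in all. A term for each pair of same surgery and week gave 5. For week the 8 neighbours became 15 with limma on log2(TPM + 1) and 16 on log2(TPM + 0.1), where 2699 and 2676 genes were called in all. They became 1 to 8 when each library was left out, where 248 to 775 genes were called in all. For the interaction the 3 neighbours became 1 with DESeq2, where 444 genes were called in all. With limma they became 0 at either pseudocount, where 350 and 334 genes were called. Their number also changed when single libraries were left out, as did the number over all genes. For surgery the number was 0 throughout. Scaling by TMM moved the median of the neighbours in the sham pair at 2 weeks from 0.28 to -0.022, and the neighbours that did not overlap from 4 to 9. The sign changed for 3 of the genes described, all near 0, none of them called. Cnot3 stood at 0.046 within the 2-week libraries, Myadm at 0.10 within the sham libraries, and Tfpt at -0.21 to 0.011 when each library was left out, the highest without WT sham 2 weeks. The cause of these moves was not tested. No paired analysis by replicate number was possible because the labels give none. With 1 library per condition, and WT levels of 0.17 to 2.04 TPM for Eps8l1, Ncr1 and Lilra5, differences in these genes are limited by counting error.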
